A study of Mus musculus with 8 samples.

Results

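The cyclins and cyclin-dependent kinases (CDKs) that carry a cell through the G1 phase, together with an inhibitor and a substrate of these kinases, were followed across 4 groups of mouse embryonic stem cells. The members were taken by name: the D-type cyclins Ccnd1, Ccnd2 and Ccnd3, the E-type cyclins Ccne1 and Ccne2, the kinases Cdk2, Cdk4 and Cdk6, the inhibitor Cdkn1b (p27) and the retinoblastoma gene Rb1. Of these 10 genes, 9 had values among the 17812 identifiers of the files, and Cdk2 was not analysed here. Ccnd2 lay below the filter on low values, a mean of 1 FPKM over the 8 samples, so 8 members were tested. FPKM is a count of sequenced fragments scaled to transcript length and library size, so levels of different genes can be set side by side.

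All samples were E14TG2a cells of strain 129/Ola at passages 3 to 6, grown without feeders on gelatin in serum with leukaemia inhibitory factor, the GSK3 inhibitor CHIR99021 and the MEK inhibitor PD0325901. The wild-type cells (WT) had no edit, and in each of the lines E1-KO, E2-KO and E3-KO an enhancer had been removed with CRISPR/Cas9. The enhancers' positions, the number of clones per line and any edited control with intact enhancers are not given in the sources used here, so a loss of an enhancer cannot be told apart from a difference between clones or cultures. Each group had 2 samples, called biological duplicates in the labels, which made 8 libraries of total RNA. Whether duplicates came from separate cultures is not given in the sources used here, so p-values measure the spread between these samples, which may be technical. Where 3 values follow each other without a line's name, they are in the order E1-KO, E2-KO, E3-KO.

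In G1, mitogens raise D-type cyclins, which pair with Cdk4 and Cdk6 and start the phosphorylation of the Rb1 protein. Cyclin E with Cdk2 completes it, which frees E2F transcription factors to switch on the genes of S phase. Cdkn1b binds and inhibits cyclin E and Cdk2. Embryonic stem cells have a short G1 phase and are known for high cyclin E activity and little hypophosphorylated Rb1 protein. The inhibitors in the medium touch the same machinery, because MEK signaling feeds Ccnd1 transcription and GSK3 marks cyclins D1 and E1 for destruction. Messenger RNA levels do not show protein or kinase activity.

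Ccne1 rose in all 3 lines, to between 2.04 and 3.34 times its WT level, and Ccnd1 fell in E1-KO and E3-KO. Rb1 fell in E1-KO and E2-KO (0.401 and 0.457 times WT), and Cdkn1b fell in E3-KO (0.494 times). Cdk6 rose in E1-KO (1.76 times). The test was limma-trend on log2(FPKM + 1) with adjustment over all 11344 genes tested, and a call means an adjusted p under 0.05. In E1-KO 5 of the 8 tested members were called, beside 37.9% of all genes, with 3 higher (15.1% of all genes) and 2 lower (22.8%). In E2-KO the count was 3 of 8, beside 36% of all genes, with 2 higher (14.2%) and 1 lower (21.8%). In E3-KO it was also 3 of 8, beside 44.5%, with 1 higher (14%) and 2 lower (30.6%). The moderated F test over the 4 groups passed for 5 of the 8, namely Ccnd1, Ccne1, Cdk6, Cdkn1b and Rb1, beside 54.3% of all genes. With 8 members the counts for E2-KO and E3-KO are near the background, and nothing is read from the larger count for E1-KO. The median log2 fold change of the 8 was 0.14, -0.03 and -0.02, and that of all tested genes was -0.06, -0.08 and -0.15.

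**Figure D1:**
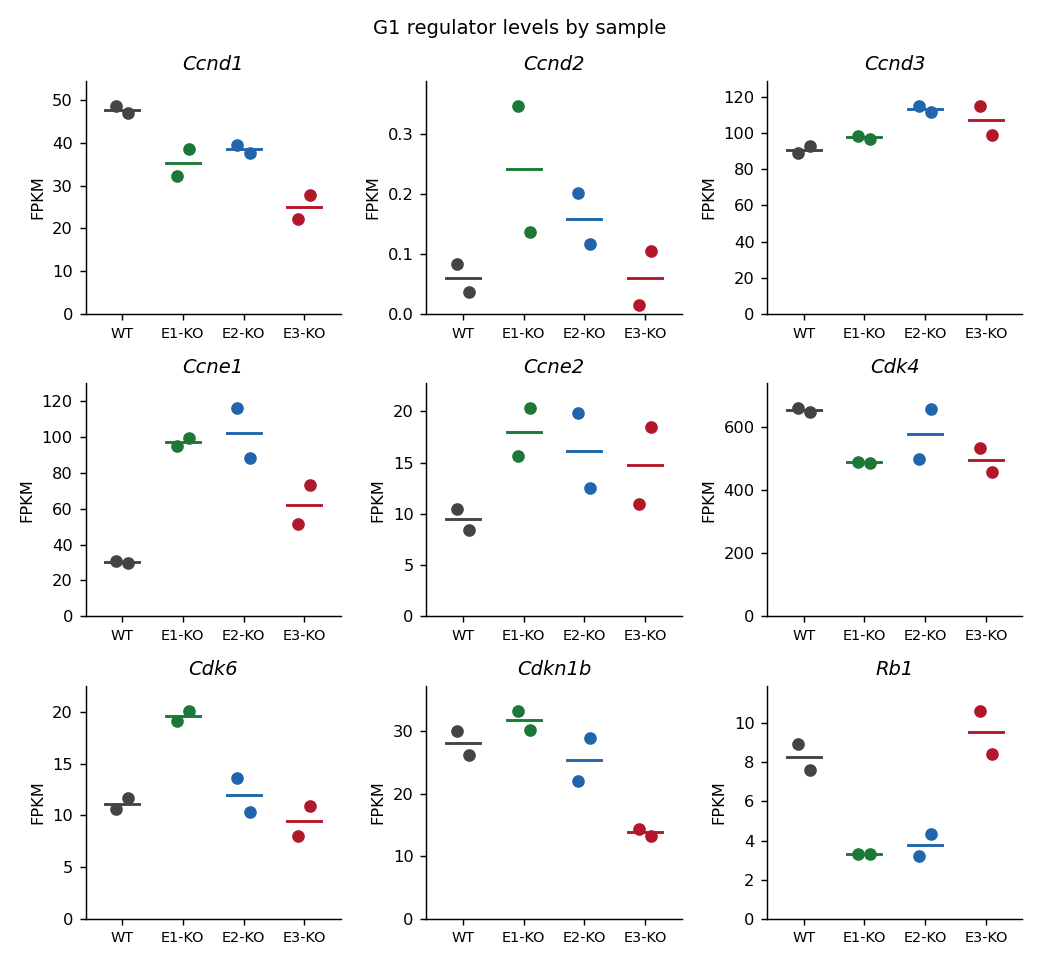
Levels in FPKM (vertical axes, starting at 0) of the 9 members with values, 1 panel per gene; points are the 2 samples of a group and the line is their mean. Ccne1 lies between 51.4 and 115.9 FPKM in the 6 samples of the knockout lines and at 30.0 and 31.0 FPKM in WT, while Rb1 is low in E1-KO and E2-KO only and Cdkn1b is lowest in both E3-KO samples.

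Sox2, the gene named in the study's design, was below both WT samples in all 6 samples of the knockout lines, with log2 fold changes of -1.16, -0.34 and -0.50 (adjusted p = 0.000175, 0.0318 and 0.005). Deposited values summed to between 454974 and 532007 per sample, 11149 to 11332 genes reached 1 FPKM, and absolute depth is unknown. Replicates correlated at 0.985 to 0.994 across tested genes, which are not independent of each other. All 6 markers of embryonic stem cells that were listed (Pou5f1, Nanog, Zfp42, Esrrb, Tfcp2l1 and Klf2) were present, with sums of 1367 to 1799 FPKM per sample, although single markers moved in opposite directions. The 7 fibroblast markers summed to 1.14 to 1.57 FPKM in WT and to 2.40 to 3.81 in the knockout lines, with Thy1 the largest in every sample. The sums of 4 listed primitive endoderm markers were 1.58 and 1.59 in WT, 0.642 to 1.21 in E1-KO and E2-KO, and 4.61 and 2.38 in the E3-KO samples. For 4 trophectoderm markers they were 5.67 and 6.33 in WT, 5.90 to 9.23 in E1-KO and E2-KO, and 12.6 and 9.75 in E3-KO. Dcn and Col3a1 of fibroblasts were listed at 0 in both WT samples. The 3 mesoderm markers, all below the filter, summed to 1.43 to 2.94 FPKM but did not move together. T had 1.70 and 2.09 FPKM in WT and 0.0363 to 0.348 in the knockout lines. Mixl1 had 0.0928 and 0.160 FPKM in WT and 0.343 to 0.920 in the lines, and Kdr lay between 0.536 and 1.08 in all samples. Pax6, the neural marker with values, lay between 0.315 and 2.50 FPKM. Among the stem cell markers, Tfcp2l1 was called lower in all 3 lines (162 FPKM in WT against 80.3, 91.8 and 108), Klf2 in E1-KO (115 against 63.05 FPKM), and Esrrb in E1-KO and E3-KO (235 against 187 and 152 FPKM). Pou5f1 (371 against 499 FPKM) and Zfp42 (191 against 276.5 FPKM) were called higher in E2-KO. Among the markers of other cell types, Thy1 was called higher in all 3 lines, Pax6 in E1-KO and E2-KO, and Gata6 and Gata3 in E3-KO. The part of these markers in the members' changes was not tested, and in bulk samples fewer cells of a type and less RNA per cell cannot be told apart.

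Ccnd1 encodes cyclin D1, the D-type cyclin most directly tied to mitogen signals (ENSMUSG00000070348, chromosome 7, 144929931 to 144939925 on the minus strand in GRCm38). Its level was 48.6 and 46.9 FPKM in WT, 32.2 and 38.5 in E1-KO, 39.4 and 37.7 in E2-KO, while E3-KO had 22.2 and 27.7. Both WT samples were above every other sample, and the E3-KO samples were below all others. E3-KO had 0.522 times the WT level (log2 fold change -0.92, standard error 0.129, adjusted p = 0.000794). The fall in E1-KO was smaller, at 0.74 times WT (-0.43, adjusted p = 0.0288), and lost its call under median-ratio scaling (adjusted p = 0.0638), with all genes above 0 tested (0.0533) and without WT replicate 1 (0.13), WT replicate 2 (0.107) or E1-KO replicate 1 (0.201). In E2-KO the difference from WT was not called (-0.30, 95% interval -0.60 to -0.01, adjusted p = 0.0966). Compared directly, E3-KO was below E1-KO by 0.49 on the log2 scale (adjusted p = 0.0236) and below E2-KO by 0.62 (adjusted p = 0.0152). The first of these calls was lost under median-ratio scaling (adjusted p = 0.0686), scaling without the 50 highest genes (0.0567) and quantile normalization (0.0702), and without E1-KO replicate 2 (0.168) or E3-KO replicate 1 (0.112). The second was lost without E2-KO replicate 1 (0.0626) or E3-KO replicate 1 (0.0542), and both with only the samples of the pair (0.0551 and 0.0586).

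Ccnd3, the gene of cyclin D3, was the most abundant D-type cyclin in every sample (ENSMUSG00000034165, chromosome 17, 47505051 to 47599691, plus strand). It measured 89.2 and 92.5 FPKM in WT, 98.3 and 96.8 in E1-KO, 114.9 and 111.4 in E2-KO, while E3-KO had 114.9 and 99.1. Every sample of the knockout lines lay above both WT samples, by small amounts. The rise was called in E2-KO alone, at 1.25 times WT (log2 fold change 0.31, adjusted p = 0.037). That call was lost when samples were quantile normalized (0.23, adjusted p = 0.0822) or scaled without the 50 highest genes (0.26, adjusted p = 0.0518), whereas the rise in E3-KO passed under both and under median-ratio scaling (adjusted p = 0.0427, 0.0316 and 0.0081). Without trend in limma (0.0606), or without any 1 sample of WT, E1-KO or E2-KO (0.0583 to 0.178), the E2-KO call was lost too.

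Ccnd2, the gene of cyclin D2 (ENSMUSG00000000184, chromosome 6, 127125162 to 127152193, minus strand), was barely detected. Its values were 0.083 and 0.0369 FPKM in WT, 0.347 and 0.136 in E1-KO, 0.202 and 0.117 in E2-KO, while E3-KO had 0.015 and 0.105. At this level no comparison was made.

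The make-up of the D-type cyclins moved. Their summed level, which was not tested, was 137.9 and 139.5 FPKM in WT, 130.9 and 135.4 in E1-KO, 154.4 and 149.2 in E2-KO, while E3-KO had 137.1 and 126.9. Both E2-KO samples lay above both WT samples, and those of E1-KO and E3-KO lay below. Ccnd1 made up 35.3% and 33.6% of that sum in WT, 24.6% and 28.4% in E1-KO, 25.5% and 25.2% in E2-KO, while E3-KO had 16.2% and 21.9%. The share was below both WT samples in all 6 samples of the knockout lines. That follows from Ccnd1 lying below and Ccnd3 above both WT samples in all 6, and is no separate result. Such a share within a sample does not change when the sample is scaled by a single factor, but quantile normalization can change it. With 2 samples against 2, an exact two-sided permutation test of such sums and ratios cannot go below p = 0.333, so they are given as values.

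Ccne1 encodes cyclin E1, the partner of Cdk2 at entry into S phase (ENSMUSG00000002068, chromosome 7, 38097984 to 38107534, minus strand). Its values were 31.0 and 30.0 FPKM in WT, 95.0 and 99.3 in E1-KO, 115.9 and 88.1 in E2-KO, while E3-KO had 51.4 and 73.1. All 6 samples of the knockout lines were above both WT samples, and the E3-KO samples lay between WT and the other lines. Against WT the level was 3.19 times in E1-KO (log2 fold change 1.64, standard error 0.173, adjusted p = 0.000313), 3.34 times in E2-KO (1.70, adjusted p = 0.000327) and 2.04 times in E3-KO (0.98, adjusted p = 0.0022). Under every alternative tried these 3 calls held, with adjusted p at most 0.0057, 0.00578 and 0.0212. E1-KO and E2-KO did not differ detectably (0.06, 95% interval -0.33 to 0.45, adjusted p = 0.894). E3-KO was below E1-KO by 0.66 (adjusted p = 0.0233) and below E2-KO by 0.71 (adjusted p = 0.0259). The first of these calls was lost under median-ratio scaling (adjusted p = 0.0529), with all genes above 0 (0.057), and without E1-KO replicate 1 (0.0951), E1-KO replicate 2 (0.113) or E3-KO replicate 1 (0.115). The second was lost with only the pair's samples (0.0895), with all genes above 0 (0.0662), and without E2-KO replicate 1 (0.122) or E3-KO replicate 1 (0.0923).

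Because Ccne1 is the member that rose in all 3 lines, the bases in front of its start are shown. They are from the RefSeq promoter table for GRCm38.p6, cut to the part before the GENCODE M21 gene start, chr7:38107535-38107740 on the minus strand. Capitals mark the GC box (GGGCGG on either strand), the element bound by Sp1-type factors.
Ccne1: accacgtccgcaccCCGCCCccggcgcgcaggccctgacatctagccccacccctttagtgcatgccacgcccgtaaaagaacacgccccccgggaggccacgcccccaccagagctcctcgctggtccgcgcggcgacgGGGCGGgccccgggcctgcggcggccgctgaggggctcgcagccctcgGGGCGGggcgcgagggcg
The run holds 3 GC boxes, and the whole window of 250 bases before to 50 after the RefSeq start holds 4. A GC box is found in 35.7% of the 32851 promoter windows of this length. The E2F core was searched on both strands in the form TTCCCGC, in the form TTCGCGC, in the form TTGCCGC and in the form TTGGCGC. The E-box was searched as CACGTG, the element of TCF factors as CTTTGAT, and that of SOX factors as CATTGTT. None of these letters were in the window of Ccne1. The E2F core is in 9.57% of all windows, the E-box in 7.15%, and the TCF and SOX letters in 3.73% and 3.78%. These matches describe letters only.

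Ccne2, the gene of the second E-type cyclin (ENSMUSG00000028212, chromosome 4, 11191351 to 11204779, plus strand), was less abundant than Ccne1 in every sample. It measured 10.5 and 8.46 FPKM in WT, 15.6 and 20.3 in E1-KO, 19.8 and 12.5 in E2-KO, while E3-KO had 10.9 and 18.5. All 6 values lay above both WT values, but the replicates of the lines were far apart. The level was 1.89 times WT in E1-KO (log2 fold change 0.85, standard error 0.266, adjusted p = 0.033), a call lost with all genes above 0 (0.0858) and without either WT sample or either E1-KO sample (0.0645 to 0.175). The values in E2-KO (0.68, 95% interval 0.08 to 1.28, adjusted p = 0.0736) and E3-KO (0.55, 95% interval -0.05 to 1.15, adjusted p = 0.123) did not pass. The first passed under quantile normalization (adjusted p = 0.0468), without E2-KO replicate 2 (0.0328) and without E3-KO replicate 2 (0.0423), and without E3-KO replicate 1 both did (0.0418 and 0.0317). The ratio of Ccne1 to Ccne2 was 2.96 and 3.54 in WT and 3.95 to 7.06 in the knockout lines.

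**Figure D2:**
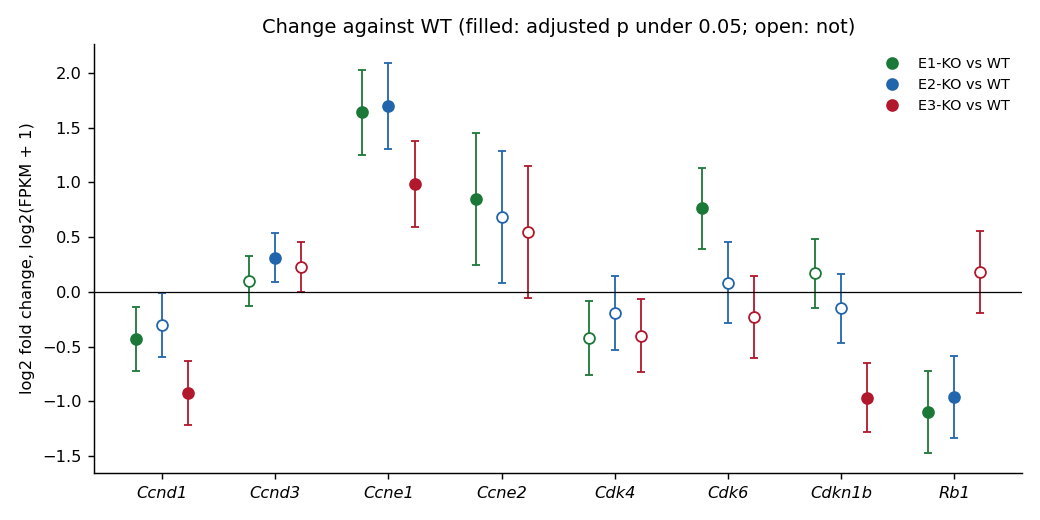
Log2 fold change against WT on the log2(FPKM + 1) scale (vertical axis) of the 8 tested members, with 95% intervals from limma-trend; filled points have an adjusted p under 0.05 and open points do not. Ccne1 is the one member filled for all 3 lines, and Rb1 is filled at -1.10 and -0.96 for E1-KO and E2-KO and open at 0.18 for E3-KO.

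The balance between E-type and D-type cyclins is described by a share and a ratio that were not among those planned. E-type cyclins made up 23.2% and 21.6% of the summed G1 cyclin level in WT, 45.8% and 46.9% in E1-KO, 46.8% and 40.3% in E2-KO, while E3-KO had 31.3% and 41.9%. The ratio of Ccne1 to Ccnd1 was 0.639 and 0.638 in WT and 2.32 to 2.95 in the 6 samples of the knockout lines. It could not overlap WT, because Ccne1 lay above and Ccnd1 below both WT samples in all 6, so it is no separate result. Among the lines this ratio overlapped, with means of 2.77, 2.64 and 2.48. Both Ccne1 and Ccnd1 were lower in E3-KO than in the other lines.

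**Figure D3:**
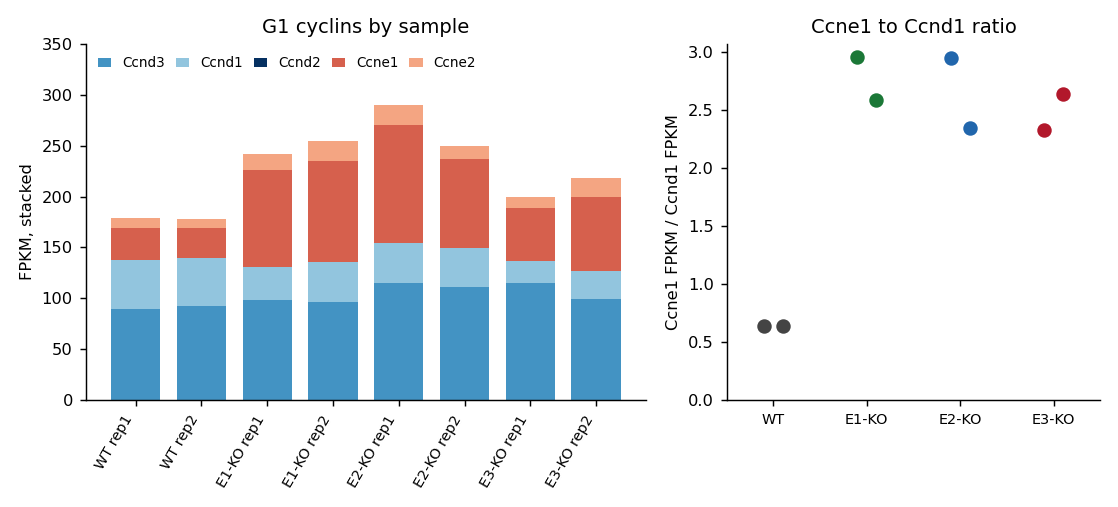
Left: levels of the 5 G1 cyclins in FPKM, stacked, for each of the 8 samples. Right: Ccne1 divided by Ccnd1 in each sample, 2 points per group; WT lies at 0.638 and 0.639 and the knockout lines between 2.32 and 2.95.

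Cdk4, one of the kinases that pair with D-type cyclins, was the most abundant member in every sample (ENSMUSG00000006728, chromosome 10, 127063534 to 127067920, plus strand). Its level was 659 and 647 FPKM in WT, 489 and 488 in E1-KO, 499 and 657 in E2-KO, while E3-KO had 535 and 458. The E1-KO and E3-KO samples lay below both WT samples, and 1 E2-KO sample lay at the WT level and the other near E1-KO. None of the 3 differences was called, at log2 fold changes of -0.42 (95% interval -0.75 to -0.08, adjusted p = 0.0519), -0.19 (-0.53 to 0.15, adjusted p = 0.345) and -0.40 (-0.74 to -0.06, adjusted p = 0.0542). With only the 4 samples of a pair in the fit, the values of E1-KO and E3-KO passed (adjusted p = 0.00179 and 0.0419), and without either sample of E2-KO they passed as well (0.0147 to 0.0153).

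The bases before the start of Cdk4 are shown because Cdk4 is the most abundant member and its window holds 4 E-boxes, the letters bound by Myc with Max. They come from the same RefSeq table, chr10:127063285-127063533 on the plus strand of GRCm38.p6, with the E-boxes in capitals.
Cdk4: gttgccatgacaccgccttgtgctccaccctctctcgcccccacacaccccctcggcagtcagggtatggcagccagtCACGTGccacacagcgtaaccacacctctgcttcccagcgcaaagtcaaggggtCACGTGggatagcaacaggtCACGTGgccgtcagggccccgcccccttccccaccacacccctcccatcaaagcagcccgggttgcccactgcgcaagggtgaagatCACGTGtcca
The whole window of Cdk4 also holds 3 GC boxes and 1 match to the TCF letters, found in 35.7% and 3.73% of all windows, but no E2F core or SOX letters. The window of Cdk6 holds 1 E-box, and those of Ccnd3, Ccne1 and Cdkn1b hold none. The table had windows for 6 of the 10 members.

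Cdk6, the other partner of D-type cyclins, set E1-KO apart (ENSMUSG00000040274, chromosome 5, 3341485 to 3531008, plus strand). It measured 10.6 and 11.7 FPKM in WT, 19.1 and 20.1 in E1-KO, 13.6 and 10.4 in E2-KO, while E3-KO had 8.03 and 10.9. Both E1-KO samples were above every other sample, and the other 3 groups overlapped. The level in E1-KO was 1.76 times WT (log2 fold change 0.76, standard error 0.165, adjusted p = 0.00728), a call lost without WT replicate 1 (adjusted p = 0.0526). In E2-KO and E3-KO the values were 0.09 (95% interval -0.29 to 0.46) and -0.23 (-0.60 to 0.14), with adjusted p of 0.708 and 0.285. E3-KO was below E1-KO by 0.99 (adjusted p = 0.00309), and the difference of E2-KO from E1-KO, -0.68, did not pass (adjusted p = 0.0924). The ratio of Cdk4 to Cdk6 was 25.6 and 24.2 in E1-KO and 36.6 to 66.6 in the samples of the other groups.

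Cdkn1b encodes p27, which inhibits cyclin E with Cdk2 (ENSMUSG00000003031, chromosome 6, 134920401 to 134925513, plus strand). Its values were 29.95 and 26.2 FPKM in WT, 33.2 and 30.3 in E1-KO, 22.0 and 28.8 in E2-KO, while E3-KO had 14.4 and 13.3. Both E3-KO samples lay below all 6 others. E3-KO had 0.494 times the WT level (log2 fold change -0.97, standard error 0.139, adjusted p = 0.000907), and it was below E1-KO by 1.14 (adjusted p = 0.000744) and below E2-KO by 0.82 (adjusted p = 0.00662). In E1-KO and E2-KO the differences from WT were 0.17 (95% interval -0.14 to 0.49, adjusted p = 0.354) and -0.15 (-0.46 to 0.17, adjusted p = 0.437).

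Cdkn1b lies on chromosome 6, whose genes had lower levels in E3-KO in general. The other 536 tested genes there had a median log2 fold change of -0.62 against WT in E3-KO, beside -0.13 on the other chromosomes. Relative to the chromosome 6 median, Cdkn1b was at -0.35 against WT, -0.55 against E1-KO and -0.24 against E2-KO. Of the other chromosome 6 genes, 123 were at or below Cdkn1b in the comparison with WT, and 64.6% of the chromosome's tested genes were called lower, beside 29.1% elsewhere. The part of the chromosome shift in the level of Cdkn1b was not tested beyond this subtraction. In E1-KO and E2-KO the median of chromosome 6 was -0.05 and -0.07, close to those of the other chromosomes (-0.06 and -0.08).

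**Figure D4:**
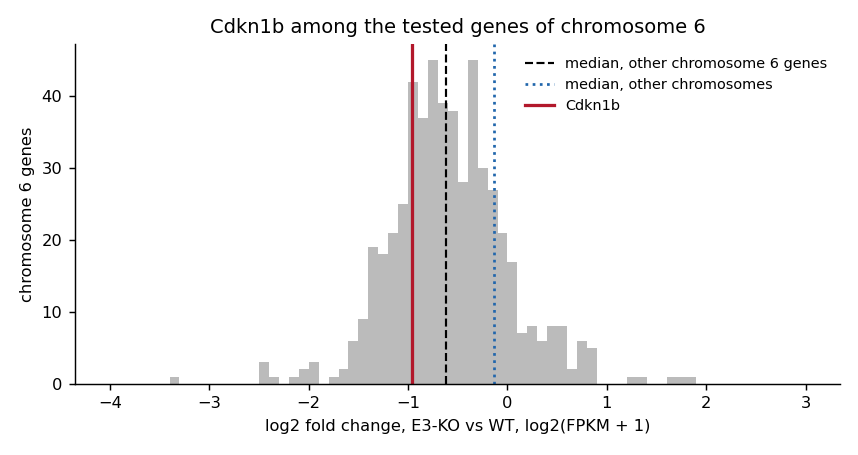
Histogram of the log2 fold change between E3-KO and WT (horizontal axis, log2(FPKM + 1) scale) over the tested genes of chromosome 6 other than Cdkn1b; the vertical axis counts genes. Cdkn1b (red line, -0.97) lies below the median of these genes (dashed line, -0.62), which lies below that of the other chromosomes (dotted line, -0.13).

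The bases before the start of Cdkn1b are given because the gene fell in 1 line only, chr6:134920151-134920400 on the plus strand of GRCm38.p6, with the GC box in capitals.
Cdkn1b: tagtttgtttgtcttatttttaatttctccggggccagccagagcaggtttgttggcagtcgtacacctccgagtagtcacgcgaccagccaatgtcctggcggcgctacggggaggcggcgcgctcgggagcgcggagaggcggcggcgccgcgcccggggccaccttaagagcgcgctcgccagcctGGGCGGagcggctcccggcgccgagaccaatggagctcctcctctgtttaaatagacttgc
The window holds 1 GC box and none of the other motifs searched.

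The planned ratio, of all summed G1 cyclins to Cdkn1b, was 5.99 and 6.79 in WT and 7.27 and 8.43 in E1-KO. In E2-KO it was 13.2 and 8.66, and in E3-KO 13.8 and 16.4. The ratio of E-type cyclins to Cdkn1b, which was not planned, was above WT in every line. It was 1.39 and 1.47 in WT, 3.33 and 3.95 in E1-KO, 6.16 and 3.49 in E2-KO, while E3-KO had 4.32 and 6.88. For both ratios, no sample of the knockout lines overlapped WT. Both contain Ccne1, which was above WT in every sample of the lines, so neither is a separate result. The summed E-type cyclins alone were 41.55 and 38.42 FPKM in WT and 62.34 to 135.7 in the lines. In the E-type ratio, E2-KO overlapped E1-KO and E3-KO, and both E3-KO samples lay above both E1-KO samples. In E3-KO both ratios include the fall of Cdkn1b, which lies on chromosome 6, where levels were lower in general.

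Rb1 encodes the retinoblastoma protein, which holds E2F factors in check until the G1 kinases phosphorylate it (ENSMUSG00000022105, chromosome 14, 73183673 to 73325822, minus strand). Its level was 8.94 and 7.58 FPKM in WT, 3.33 and 3.30 in E1-KO, 3.20 and 4.36 in E2-KO, while E3-KO had 10.6 and 8.43. The samples of E1-KO and E2-KO lay below all samples of WT and E3-KO, which overlapped. E1-KO had 0.401 times the WT level (log2 fold change -1.10, standard error 0.166, adjusted p = 0.00151) and E2-KO 0.457 times (-0.96, adjusted p = 0.00302). E3-KO was not called against WT (0.18, 95% interval -0.20 to 0.56, adjusted p = 0.405). It was above E1-KO by 1.28 (adjusted p = 0.00101) and above E2-KO by 1.14 (adjusted p = 0.00331). The identifier of Rb1 had 2 adjacent rows in the files, which were summed here. The second row held 0 in all 4 samples of E1-KO and E2-KO and at most 1.25 FPKM elsewhere, and the first row alone gave the same calls. Rb1 made up 24.4% and 20.2% of the summed level of the pocket protein genes Rb1, Rbl1 and Rbl2 in WT, 9.99% to 13.7% in E1-KO and E2-KO, and 31.0% and 22.4% in E3-KO.

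In each group the order of levels began with Cdk4 and Ccnd3. In WT, Ccnd1, Ccne1, Cdkn1b, Cdk6, Ccne2, Rb1 and Ccnd2 followed, and only Ccne2 and Rb1 overlapped among neighbors. In E1-KO and E2-KO, Ccne1 came next, with samples that overlapped those of Ccnd3, and Rb1 was the lowest of the tested members. In E3-KO, Ccne1 also came next but without overlap, Ccne2 and Cdkn1b overlapped, and so did Rb1 and Cdk6.

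Between lines, every call of a member involved E3-KO, the line with more calls over all genes as well. E2-KO and E1-KO differed in 0 of the 8 members by limma-trend, beside 0.899% of all genes (0.538% higher and 0.361% lower). At that share, a count of 0 says nothing about the members. Cdk6 and Cdkn1b came closest to a call between these 2 lines, with adjusted p of 0.0924 and 0.265. E3-KO differed from E1-KO in 5 of 8 members, beside 25.7% of all genes (9.41% higher and 16.3% lower), and from E2-KO in 4 of 8, beside 15.5% (5.46% higher and 10% lower). Ccnd1, Ccne1 and Cdkn1b were lower and Rb1 higher in E3-KO in both, though each Ccnd1 and Ccne1 call was lost under some alternatives. Cdkn1b lies on chromosome 6, where levels were lower in E3-KO in general. Cdk6 was lower in E3-KO than in E1-KO, but E3-KO was not called against WT or E2-KO (adjusted p = 0.285 and 0.225 by limma-trend).

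Genes with the most similar course over the 8 samples were found for the 5 members that differed among the groups, as the smallest root mean square distance of centered log2(FPKM + 1) values among 8444 genes of at least 5 FPKM. For Ccnd1 they were Rmnd5a and Slc16a1 (distances 0.093 and 0.0946), beside a deviation of Ccnd1 itself from its mean of 0.346. For Ccne1 they were Palm3 and Hnrnpa2b1 (0.175 and 0.183, beside 0.702), and for Cdk6 Ppp1r9a and Erc1 (0.0866 and 0.112, beside 0.395). For Cdkn1b they were Apobec1 and Pou2f3 (0.119 each, beside 0.451), and for Rb1 Ostf1 and Rnd3 (0.136 and 0.147, beside 0.58). Of these 10 genes, 5 lie on chromosome 6 (Rmnd5a, Hnrnpa2b1, Ppp1r9a, Erc1 and Apobec1), where 401 of the 8444 candidates lie.

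The remaining genes of the G1 machinery were taken from lists written with earlier results of these data known. Of 6 other CDK inhibitor genes, 3 were tested, and 3, 3 and 2 of them were called lower, beside 22.8%, 21.8% and 30.6% of all genes. Below the filter, Cdkn1c (p57) had a mean of 0.407 FPKM in WT and 1.91 in E3-KO, Cdkn2c (p18) had 0.570 in WT and 1.15 in E1-KO, and Cdkn2d was not analysed here. Cdkn1a (p21), a target of p53, had 123.7 FPKM in WT and fell to 49.9, 48.0 and 72.2 FPKM (means of 2 samples; log2 fold changes -1.29, -1.36 and -0.78). Cdkn2a, the gene of p16 and p19Arf, fell from 11.6 to 7.44, 7.05 and 5.22 FPKM (-0.59, -0.66 and -1.03). Cdkn2b (p15) fell in E1-KO (-0.55) and E2-KO (-0.48), and its value for E3-KO was -0.23 (adjusted p = 0.202). The medians of the 3 were -0.59, -0.66 and -0.78.

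Among 12 pocket protein, E2F and E2F partner genes, all tested, 5, 2 and 0 were higher, beside 15.1%, 14.2% and 14% of all genes, and 3, 2 and 5 lower, beside 22.8%, 21.8% and 30.6%. The counts for E2-KO are near those shares. E2f3, an activator, had 10.3 FPKM in WT and rose in E1-KO to 17.5 and in E2-KO to 19.4 (0.71 and 0.82). The repressors E2f7 (0.59 and 0.48 in E1-KO and E2-KO) and E2f8 (0.62 in E1-KO) rose too. E2f1, another activator, fell in all 3 lines (-0.32, -0.47 and -0.76), as did E2f5 (-0.48, -0.47 and -0.49). Tfdp2, a partner of E2F proteins, fell in E1-KO (-0.65) and Tfdp1 in E3-KO (-0.51). The medians were 0.11, 0.05 and -0.18.

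All 4 genes that activate CDKs were tested, with 3, 2 and 2 lower and 0 higher, beside the same shares of all genes. Cdk7, the kinase of the CDK-activating complex, fell from 39.65 FPKM in WT to 24.0, 27.3 and 22.9 (-0.70, -0.52 and -0.76). Its cyclin partner Ccnh fell in E1-KO (-0.45) and E3-KO (-0.49), and the phosphatase gene Cdc25a in E1-KO (-0.40) and E2-KO (-0.30). Of 9 tested genes for the turnover of G1 cyclins and p27, 2, 1 and 3 were lower, near or below the 22.8%, 21.8% and 30.6% of all genes, and 0, 0 and 1 higher. Usp28, a deubiquitinase that opposes Fbxw7, fell from 34.4 FPKM in WT to 14.3, 15.8 and 14.1 (-1.21, -1.07 and -1.25). Fbxw7, the ligase subunit that recognizes cyclin E, rose in E3-KO (0.36), a call lost with all genes above 0 (adjusted p = 0.0556), with only the samples of the pair (0.05), and without any 1 sample of WT or E3-KO (0.0615 to 0.234). Skp1a, a core ligase subunit, fell in E1-KO (-0.37) and E3-KO (-0.36), and Cul1, which lies on chromosome 6, fell in E3-KO (-0.43).

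**Figure D5:**
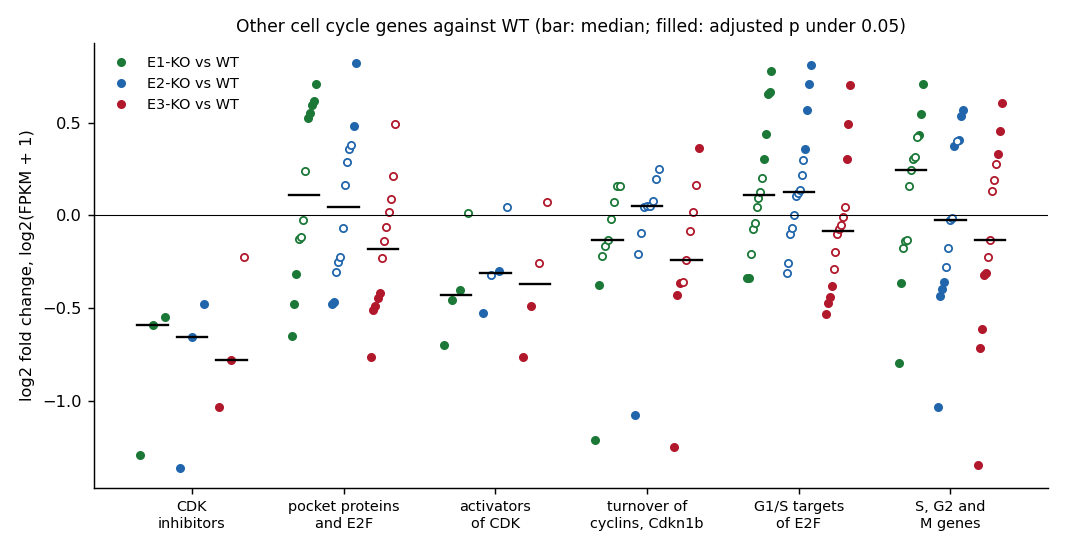
Log2 fold changes against WT (vertical axis, log2(FPKM + 1) scale) of the tested genes in 6 lists of other cell cycle genes, 1 point per gene and line, with black bars at the medians; filled points have an adjusted p under 0.05. The CDK inhibitors lie below 0 in all 3 lines (medians -0.59, -0.66 and -0.78), and the lists of G1/S targets and of S, G2 and M genes spread to both sides.

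Of 14 tested G1/S targets of E2F, 5, 4 and 3 were higher, beside 15.1%, 14.2% and 14% of all genes, and 2, 0 and 4 lower, beside 22.8%, 21.8% and 30.6%, with medians of 0.11, 0.13 and -0.09. Mcm5, a subunit of the replicative helicase, rose in all 3 lines (0.78, 0.71 and 0.49), as did Cdc6, which loads it (0.66, 0.57 and 0.30), and Tyms, the thymidylate synthase gene (0.66, 0.81 and 0.70). The Cdc6 call for E3-KO was lost with only the samples of the pair (adjusted p = 0.0645), in limma without trend (0.0507), and without either WT sample (0.18 and 0.0898), either E1-KO sample (0.0609 each) or E3-KO replicate 2 (0.134). Mcm6, another helicase subunit, fell in E1-KO (-0.33) and E3-KO (-0.53). Rrm2, a ribonucleotide reductase subunit, fell in E1-KO (-0.34), and Tk1, the thymidine kinase gene, in E3-KO (-0.47). Of 13 genes of S, G2 and M phase, 3, 4 and 3 were higher and 2, 4 and 5 lower, beside the same shares of all genes. The mitotic kinase genes Aurka (0.71, 0.57 and 0.61) and Plk1 (0.43, 0.40 and 0.33) rose in all 3 lines, while the checkpoint kinase gene Bub1 (-0.79, -1.03 and -1.34) and the kinase gene Aurkb (-0.36, -0.36 and -0.71) fell in all 3. Ccna2, the cyclin of S phase, rose in E1-KO (0.55) and E2-KO (0.37). Cdc20, which activates the anaphase ligase, rose in E2-KO (0.54) and E3-KO (0.45). Ccnb2, a mitotic cyclin, fell in E2-KO (-0.39) and E3-KO (-0.61), as did the topoisomerase gene Top2a (-0.43 and -0.32).

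Upstream, Myc, whose protein drives G1 genes, had 1.41 FPKM in WT and rose to 7.24, 7.46 and 3.65 FPKM (log2 fold changes 1.77, 1.75 and 0.94). Mycn remained the more abundant of the pair, with 43.3 FPKM in WT, and fell in E1-KO (-0.34) and E3-KO (-0.66). Of the 8 upstream regulators, 1 was higher in each line, beside 15.1%, 14.2% and 14% of all genes, and 5, 5 and 4 were lower, beside 22.8%, 21.8% and 30.6%. Ctnnb1, the gene of beta-catenin, fell in all 3 lines (-0.92, -0.54 and -0.77), and so did Stat3 (-0.49, -0.42 and -0.58), which carries the LIF signal. Foxo1, a transcription factor restrained by growth signals, fell in E2-KO (-0.44). Some calls of the genes named from these lists were lost under another scaling of the samples: E2f1, E2f3, Skp1a and Rrm2 in E1-KO, Cdkn2b, Cdc25a, Foxo1 and Stat3 in E2-KO, and Cul1 and Skp1a in E3-KO. With all genes above 0 tested, the calls of Stat3 in E1-KO (adjusted p = 0.0528) and of E2f3 and E2f7 in E2-KO (0.0607 and 0.0554) were lost as well. The 3 comparisons with WT share the WT samples, so a change seen in all of them does not count 3 times.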

How the data were processed

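Total RNA of 8 samples (4 groups of 2, from the sample titles) was sequenced as paired-end reads, per the labels' protocols. The authors deposited 1 table of gene identifiers and values per sample, taken here as FPKM because the values are not whole and the submitters' processing notes name Cufflinks 2.2.1, with Trimmomatic 0.36, TopHat2 2.0.12 and mm9. Annotation and scaling between samples are not given in the sources used here. Coordinates are those of GENCODE M21 on GRCm38 and are not the authors'.

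Each table had 18774 rows with 17812 identifiers, of which 17262 matched a symbol. Of 660 identifiers with several rows, 578 took the row at the gene's place in file order and 82, Rb1 among them, were summed. The 11344 genes whose mean reached 1 FPKM were fitted as log2(FPKM + 1) with limma-trend (limma 3.58.1, R 4.3.3), all 8 samples and the group as the only term, which left 4 residual degrees of freedom. Fold changes on this scale understate those of low genes, while a level given as a number of times another is the ratio of mean FPKM. Tests are two-sided with Benjamini-Hochberg adjustment per comparison. The fit was tested on simulated data. Depth being unknown, no counting intervals are given. The 10 members and all gene lists were chosen with earlier results of these data known. All members are named, and of the other lists the called genes, at most the 3 with the largest change per direction and comparison, except 1 gene that is not reported here. Alternatives were 3 scalings, a replicate block, the pair alone, no trend, 2 filters, a pseudocount of 0.1, 2 treatments of repeated rows, leaving out each sample, and, chosen after seeing the data, Rb1 from its first row. For Cdkn1b in E3-KO, the median of chromosome 6 was also subtracted, with no test. Plots used Python 3.11.15 with matplotlib 3.10.9.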

Additional observations from a re-analysis of the deposited data

Results flagged for a closer look

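The change against WT differed between lines for 5 members, by limma-trend tests of the lines against each other with adjustment over all genes. Ccnd1 was at -0.49 in E3-KO relative to E1-KO and at -0.62 relative to E2-KO (adjusted p = 0.0236 and 0.0152), and both E3-KO samples were below all 4 samples of those lines. Ccne1 was at -0.66 and -0.71 (adjusted p = 0.0233 and 0.0259), again with both E3-KO samples lowest of the 6. The Ccnd1 calls were lost under 6 and 3 of 20 alternatives and the Ccne1 calls under 5 and 4, while the calls of the other members below held under every alternative. Cdk6 was at -0.99 in E3-KO relative to E1-KO (adjusted p = 0.00309). Cdkn1b was at -1.14 and -0.82 (adjusted p = 0.000744 and 0.00662), and relative to the median of chromosome 6 at -0.55 and -0.24. Rb1 was at 1.28 and 1.14 (adjusted p = 0.00101 and 0.00331), with both E3-KO samples above all 4 others.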

How the results depend on the processing

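Of 48 comparisons of a member (8 members, 6 pairs of groups), 20 were called, and 12 of these calls held under every alternative that refitted the data. They include Ccne1 in all 3 lines against WT, Rb1 in E1-KO and E2-KO, Cdkn1b in E3-KO and Ccnd1 in E3-KO. The other 8 lost their call under at least 1 alternative, and 6 comparisons that were not called passed under at least 1. Subtracting the median of chromosome 6, which had no test, is not in these counts. It moved Cdkn1b in E3-KO against WT from -0.97 to -0.35. The count of called members went to 3 for E3-KO against E1-KO with median-ratio scaling, beside 1457 higher and 1295 lower of all 11344 genes. It went to 2 for E3-KO against E2-KO with only the samples of the pair, beside 272 higher and 390 lower of 11344. For E1-KO against WT with all genes above 0 it went to 3, beside 1594 higher and 2449 lower of 17812. In the main fit, all genes gave 1067 and 1845, 619 and 1134, and 1708 and 2591 in the same order. The cause was not tested. Leaving out 1 sample gave 2 to 6 called members in E1-KO against WT, 2 to 4 in E2-KO against WT and 3 to 5 in E3-KO against WT. It gave 0 for E2-KO against E1-KO, 3 to 5 for E3-KO against E1-KO, 2 to 4 for E3-KO against E2-KO and 5 to 7 for the 4 groups. A lone sample was then assumed to vary like the other groups.

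Samples of one replicate number did not deviate together (mean correlation 0.00448, range -0.0432 to 0.0915 over 6 pairs of groups). The replicate block left all 48 member results on their side of the threshold, with 5, 3 and 3 members called in E1-KO, E2-KO and E3-KO against WT. Beside them, 1630, 1542 and 1508 of all 11344 genes were called higher and 2442, 2321 and 3327 lower. Median-ratio scaling moved the median of all genes in E3-KO against WT from -0.15 to 0.0032 and the split of called genes from 1584 higher and 3467 lower to 2373 and 2380. For E1-KO the split went from 1708 and 2591 to 2058 and 2179, and for E2-KO from 1607 and 2472 to 2001 and 1973. Of 78 named values in the other lists, 38 held under every alternative and 24 lost their call only where a sample was left out. The replicate block took 5 of the 78 just above the threshold, E2f1, E2f3 and Rrm2 in E1-KO (adjusted p = 0.0509, 0.0521 and 0.0562), Stat3 in E2-KO (0.0514) and Fbxw7 in E3-KO (0.0543).

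The sign turned in 15 cases, none called under either setting. Ccnd3 in E3-KO against E2-KO (-0.08) went to 0.0392 with quantile normalization, 0.0061 with median-ratio scaling and 0.0289 without the 50 highest genes, and lay between -0.1896 and 0.0227 without either E3-KO sample. The other turns came with 1 sample left out. Without either E2-KO sample, the values in E2-KO against WT lay between -0.3887 and 0.0085 for Cdk4, -0.0959 and 0.2676 for Cdk6, and -0.3329 and 0.04 for Cdkn1b. For E2-KO against E1-KO they lay between -0.1396 and 0.2516 for Ccne1, -0.0399 and 0.3127 for Rb1, and -0.4811 and 0.1438 for Ccne2, which went to 0.0093 without E1-KO replicate 2. Without either E3-KO sample, Ccne2 lay between -0.6577 and 0.0515 against E1-KO and Cdk4 between -0.0914 and 0.1303. Ccne2 in E3-KO against E2-KO lay between -0.4891 and 0.2201 without either E3-KO sample and at 0.178 without E2-KO replicate 1.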
